A study of Mus musculus with 3 samples.

Results

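The placental cathepsins described here are the 8 mouse genes Ctsj, Ctsq, Ctsr, Cts6, Cts8, Cts7, Ctsm and Cts3, which lie in 1 cluster on chromosome 13. They were chosen by gene name, with results of the present comparison already known, and every probe that carried one of these names was taken, dim ones included. This gave 8 probes of 39429 on the array, 1 for each gene and 1 spot for each probe. RNA came from mouse embryoid bodies, clumps of embryonic stem cells that differentiate in suspension when LIF, a self-renewal factor, is withdrawn. They had been grown for 10 days in low attachment plates. Wild-type embryoid bodies were compared with the genotype named Dido3deltaCT+HADido3CT. These cells carry a Dido3 protein truncated at its C-terminus and also overexpress the missing CT region, encoded by exon 16, and are called mutant+CT here. No sample carried the truncation alone or the CT construct alone, so their effects cannot be told apart. The labels do not name the embryonic stem cell line or clone, nor the promoter of the construct. The series title places the study in the choice between self-renewal and differentiation.

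Each of 3 arrays, on 1 slide, carried 1 wild-type and 1 mutant+CT RNA, 3 biological replicates in all. Wild type was dyed with Cy5 except on replicate 2, where the dyes were swapped. Values are log2 ratios within an array, mutant+CT over wild type, where 1 is a 2-fold difference, or normalized log2 intensities of 1 RNA, called levels. A level is compared only with the level of the same probe, since probes differ in brightness. Replicate 2 is alone in its dye orientation, so a dye effect and a difference of that replicate cannot be told apart. The files mark 68.1% to 78.5% of spots per channel as well above background and none as saturated. The median log2 ratio of all probes was -0.0031.

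Cathepsins of the papain family are cysteine proteases that work mainly in lysosomes. Mice and rats carry an expanded group of them near the gene of cathepsin L, absent from humans, whose members are made in the placenta, largely in trophoblast cells. Ctsq is used as a marker of the sinusoidal giant cells that line the maternal blood spaces of the labyrinth, and Cts7 and Cts8 transcripts have been located in subsets of giant cells.

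The probes of the 8 genes differ in sequence although the genes are close relatives. The first 30 of the 60 bases are given for the 4 probes that were well above background on at least 2 arrays in both groups, because these carry the measured values.
Ctsj: cttgttctacaacagcatggcaactactat
Ctsr: gtgattctgggacccttcaactattttgac
Ctsq: tgtgaattctgggagctttcaaatatttca
Cts7: gcctatgtgtatgaaggaaggaaagatatt
The longest run of bases that any member probe shared with another member probe was 9, and the longest shared with any other probe of the array was 15. A run of 20 or more bases was shared with 0 other probes. The probes were compared only with other probes and not with the transcripts of the other members. Short shared runs therefore do not show that a probe detects only its own gene. By the coordinates in the files (mm9, minus strand) the probes lie on chromosome 13 at 61101639 to 61101698 for Ctsj, 61136470 to 61136529 for Ctsq, 61260648 to 61260707 for Ctsr and 61454034 to 61454093 for Cts7. The others lie at 61296701 to 61296760 (Cts6), 61348486 to 61348545 (Cts8), 61637806 to 61637865 (Ctsm) and 61666111 to 61666170 (Cts3). The cluster thus reaches 564 kb from the Ctsj to the Cts3 probe. The place of the probes in exons or untranslated regions was not analysed here.

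RNA of 3 of the 8 genes, Ctsj, Ctsr and Ctsq, passed the filter on dim probes. This filter asks for signal well above background on every array in at least 1 of the groups. Ctsq passed only through mutant+CT, the group where its mean is higher, and was dropped when the filter was asked of both groups. The ratios of the 3 genes were above 0 on each array, though that of Ctsq by only 0.06 on replicate 3. Turned into a fold difference, the mean log2 ratio of mutant+CT over wild type was 10.7-fold for Ctsj, 2.78-fold for Ctsr and 2.28-fold for Ctsq. The other 5 genes (Cts7, Cts3, Cts8, Cts6 and Ctsm) were dim, with mean log2 ratios between -0.04 and 0.53. These ratios describe the contrast that led to the choice of the genes, so none of them is given a test of its own.

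Ctsj, a cathepsin of the placenta, had the highest ratio. Its spot brightness in replicate 1 was 1948 in wild type and 21434 in mutant+CT. In replicate 2 it was 243 and 3314, and in replicate 3 it was 207 and 1758. Spots without a target, the 153 negative controls, had median brightness of 46.9, 81.1 and 48.1 in the wild-type channels and 83.9, 45.9 and 81.5 in the mutant+CT channels. Ctsj was thus above background in all 6 RNAs, wild type included. Its log2 ratio was 3.24, 3.90 and 3.14 on replicates 1, 2 and 3 (3.43 ± 0.41, SD, n = 3). The array with swapped dyes gave the largest of these values, and the spread between arrays was small beside the mean.

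Ctsr, a close relative of Ctsj, had log2 ratios of 1.73, 1.75 and 0.94 (1.47 ± 0.46, SD, n = 3). It was well above background in all 6 RNAs. The ratio was over 2-fold on replicates 1 and 2 and just under it on replicate 3.

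Ctsq, the marker of sinusoidal giant cells, had log2 ratios of 1.27, 2.23 and 0.06 (1.19 ± 1.09, SD, n = 3). Its wild-type signal was not well above background on replicate 2, where the ratio was largest, with a brightness of 105 against a negative control median of 81.1. On replicate 3 the signals of both RNAs were nearly equal. The difference between arrays was about as large as the mean ratio itself, and the mean was 0.67 without replicate 2 and 1.75 without replicate 3.

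**Figure D1:**
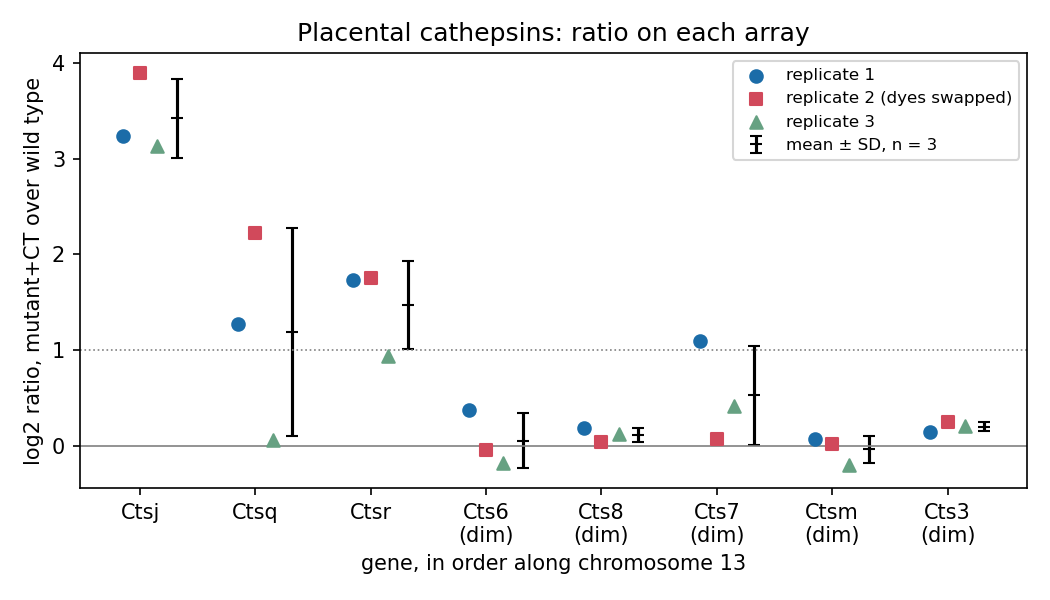
Log2 ratio of mutant+CT over wild type (vertical axis) for each placental cathepsin in order along chromosome 13 (horizontal axis), with 1 symbol per array, the mean ± SD of 3 arrays beside them and a dotted line at a 2-fold difference. Ctsj lies above 3 on all 3 arrays, Ctsq spreads from 0.06 to 2.23, and the dim probes lie near 0 except for Cts7 on replicate 1.

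Cts7, known from giant cells, was the only dim member with signal well above background in both groups, on replicates 1 and 3. Its log2 ratios were 1.09, 0.07 and 0.42 (0.53 ± 0.52, SD, n = 3). Without replicate 1 the mean was 0.24. The value on replicate 2 comes from a spot that was well above background in neither channel.

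Ctsm was well above background in 1 RNA, mutant+CT of replicate 2, and had log2 ratios of 0.06, 0.02 and -0.20. Cts6 was so in 1 RNA, wild type of replicate 3, with 0.37, -0.05 and -0.18. Cts3 and Cts8 were well above background in none of the 6 RNAs, and their log2 ratios were 0.14, 0.24 and 0.21 for Cts3 and 0.19, 0.04 and 0.12 for Cts8. A ratio near 0 from a dim spot does not show that the RNA was equal in both groups. For scale, the 5950 probes of the array that were well above background in no channel had a median absolute log2 ratio of 0.05 and a 95th percentile of 0.14. Cts8, Cts6 and Ctsm lay inside that percentile and Cts3 (0.20) outside it.

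Over all 8 genes the median log2 ratio was 0.36, and by array it was 0.73, 0.15 and 0.16. Ctsj was the 1 member at least 2-fold higher on every array. Over all genes kept by the filter 387 of 20390 were (1.9%), and over all probes 1.36%. The ratio was above 0 on every array for 6 of the 8 (Ctsj, Ctsq, Ctsr, Cts7, Cts3 and Cts8), beside 17.3% of all probes. Since the genes were chosen with this contrast known, nothing is read from these counts. In limma's test of the ratio against 0 with Benjamini-Hochberg adjustment, 0 of 20390 genes passed an adjusted p under 0.05 (0%), and 3212 had an unadjusted p under 0.05 (15.8%).

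The level of Ctsj differed between replicates by as much as it differed between the groups. In wild type it was 11.30, 7.77 and 7.56 on replicates 1, 2 and 3. In mutant+CT it was 14.54, 11.67 and 10.70. Wild type of replicate 1 thus had more Ctsj signal than mutant+CT of replicate 3, and the groups overlap as single RNAs although they are far apart on each array. Replicate 1 exceeded replicate 3 by 3.74 in wild type and by 3.84 in mutant+CT. The median absolute difference between these replicates over all kept genes was 0.34 in wild type and 0.47 in mutant+CT. Only 0.00981% of the kept genes were at least as far apart as Ctsj in wild type, and 0.329% in mutant+CT.

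The same order held in part for the other members. Ctsr levels were 9.50, 7.28 and 8.07 in wild type and 11.23, 9.03 and 9.01 in mutant+CT, with replicate 1 highest in both groups. Ctsq levels were 8.21, 6.48 and 7.69 in wild type and 9.49, 8.71 and 7.75 in mutant+CT, again with replicate 1 highest in both. Cts7 levels were 7.22, 6.17 and 6.49 in wild type and 8.31, 6.24 and 6.91 in mutant+CT. The lowest mutant+CT level lay below the highest wild-type level for all 8 genes, so 0 of 8 had groups that did not overlap, beside 7.39% of all probes that had the lowest mutant+CT level above the highest wild-type one. In RNA from whole embryoid bodies, more cells of a type and more RNA per cell cannot be told apart.

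**Figure D2:**
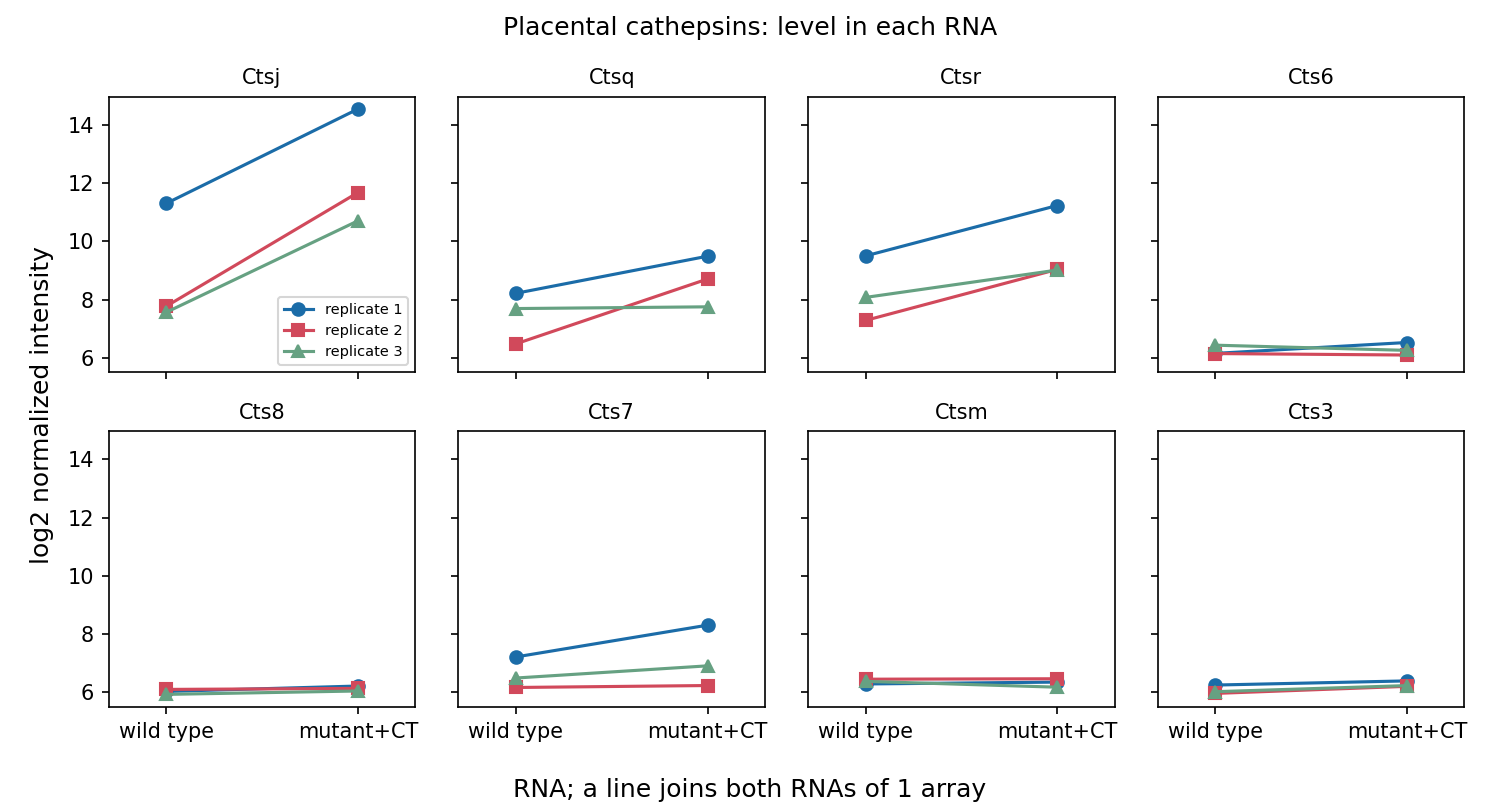
Normalized log2 intensity (vertical axis) of each placental cathepsin in the wild-type and the mutant+CT RNA of each array, with a line joining both RNAs of 1 array. Replicate 1 is highest in both groups for Ctsj, Ctsq, Ctsr and Cts7, the lines of Ctsj rise on all 3 arrays, and the 4 dimmest probes stay close to 6.

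Markers of trophoblast, the tissue that makes these cathepsins in the placenta, were read beside them. The list of trophoblast giant cells had 7 genes, of which 6 were kept and Prl2c2 was not on the array. Its median log2 ratio was 2.40, beside -0.0024 over all kept genes, and 2 of 6 genes were at least 2-fold higher on every array. These were Prl4a1, a placental prolactin-family hormone (3.14, 2.76 and 2.56, with wild type not well above background on replicate 2), and Prl2a1, of the same family (2.62, 3.77 and 1.18). The list's brightest member, Rhox6, a homeobox gene, had -0.52, 1.45 and 0.77. Hand1, a transcription factor that giant cells need, had 0.97, -1.50 and -1.29, so the markers did not all point the same way. The summed normalized intensity of the list ranged from 3894 to 22441 in wild type and from 6981 to 41396 in mutant+CT. Replicate 1 had the highest level among the wild-type RNAs for 6 of the 6 kept giant cell markers, and among the mutant+CT RNAs for 5 of 6, beside 30.2% and 34.8% of all kept genes. The part of giant cell numbers in the cathepsin values was not tested.

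Further trophoblast lists were read the same way. Of 9 genes of spongiotrophoblast and glycogen cells 5 were kept, with a median log2 ratio of 1.51. Prl8a9 was the 1 at least 2-fold higher on every array (3.31, 1.77 and 1.46, with wild type not well above background on replicate 2), and the brightest, Phlda2, an imprinted growth regulator, had 1.00, -2.16 and 0.72. The 6 labyrinth and syncytiotrophoblast genes had a median of -0.02. Their 1 high value, 3.07 for Gcm1, came from a probe with a GAA repeat of 42 bases, and a Gcm1 probe without a repeat was dim and had 0.12. Bright Gcm1 probes with shorter GAA runs had a mean of 3.31 (18 bases) and ratios of 1.66, -0.31 and 2.40 (9 bases). The files place the bright probes on chromosomes 7 and 5 and the dim one on chromosome 9. Their brightest gene, the lactate transporter Slc16a3, had 0.19. The median was 0.70 for 7 trophoblast stem cell genes, with Esrrb, an orphan nuclear receptor, the brightest (0.45, 2.08 and 2.67). Of these 7 genes 3 were higher on every array and 1, Sox21, was lower on every array (-2.38, -0.02 and -2.75). For 6 kept general trophoblast genes the median was 0.72, with the keratin Krt8 the brightest (0.55, 0.06 and 0.42). Neither list held a gene with a 2-fold difference on every array (0 in both). Replicate 1 was highest among wild-type and among mutant+CT RNAs for 4 and 4 of 5 spongiotrophoblast genes. The numbers were 4 and 5 of 6 general trophoblast genes, 2 and 2 of 6 labyrinth genes and 1 and 1 of 7 stem cell genes. That order was thus not particular to the giant cell markers. The summed intensities in wild type and mutant+CT were 2123 to 6762 and 4591 to 9348 for spongiotrophoblast, 18134 to 18661 and 28395 to 46781 for labyrinth (15847 to 16566 and 16306 to 18772 without the Gcm1 probe with the repeat), 8318 to 13624 and 18409 to 41135 for stem cells, and 41239 to 82591 and 64650 to 126154 for general trophoblast.

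Markers of other cell types were read too, and limma called 0 genes of any of these lists. Of 8 visceral endoderm genes 3 (Apoa1, Apoa4 and Trf, which encode secreted carrier proteins) were at least 2-fold higher on every array, with a list median of 1.34. The brightest, the fetal plasma protein Afp, had 1.55. Of 6 parietal endoderm genes 3 (Thbd, Col4a1 and Lama1) were at least 2-fold lower on every array, as were 0.991% of all kept genes, and the median was -1.96. The brightest of them, the matrix protein gene Sparc, had 0.17 on its brightest probe. A dimmer Sparc probe, also well above background in every RNA, had -0.96, -3.04 and -0.43, so the probes of this gene disagreed. The 4 pluripotency markers had a median of 0.71. The brightest, Zfp42, had 2.17 ± 1.22 (SD, n = 3), Pou5f1 had 1.26, Sox2 0.16 and Nanog 0.09. The maternal decidua list, whose cells embryoid bodies lack, had 3 of 4 genes kept and a median of -0.34. That is the mean of Hand2, whose ratios of 4.39, -2.60 and -2.80 went both ways. The list's defining hormone gene Prl8a2 was well above background in no channel. Its brightest gene, the chaperone gene Cryab, which other tissues also express, had -1.44. Macrophage genes had 3 of 6 kept and a median of 0.02. That is the mean of the brightest, Cd68, a lysosomal membrane protein, whose ratios were -1.42, 0.13 and 1.35. Of the other kept ones Csf1r had 0.90, 1.86 and 1.10 on its brightest probe and means of 0.51 and -0.01 on dimmer probes. Adgre1 had a mean of -0.08. The median thus does not show that macrophage markers were alike in both groups. The part of these cell types in the cathepsin values was not tested.

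**Figure D3:**
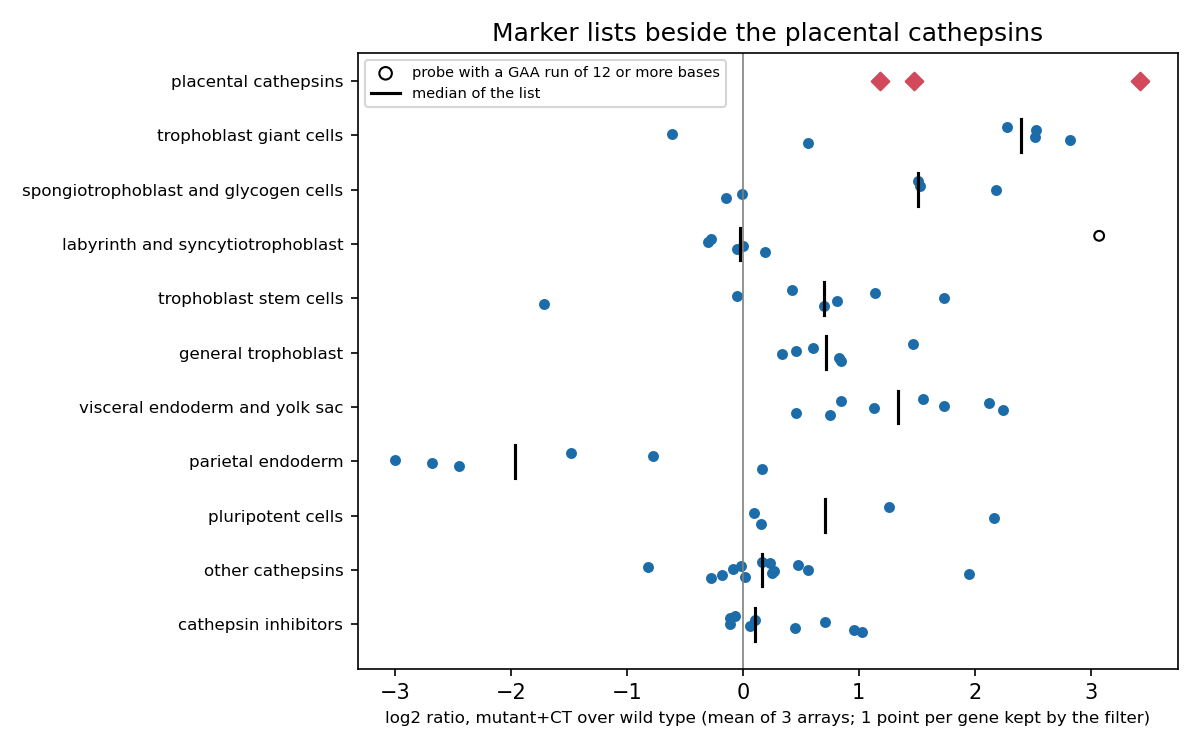
Mean log2 ratio of mutant+CT over wild type (horizontal axis) of each gene kept by the filter, grouped by list (vertical axis), with a bar at the median of each list, diamonds for the 3 kept placental cathepsins and an open circle for a probe with a GAA run. Ctsj at 3.43 lies to the right of every other point, 4 giant cell markers lie above 2, and the other cathepsins and the inhibitors lie mostly near 0.

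Cathepsins outside the placental group are lysosomal enzymes of many tissues. Of 16 such proteases 13 were kept, and 0 were at least 2-fold higher or lower on every array. Their median log2 ratio was 0.16. In limma 0 of 13 passed an adjusted p under 0.05, with 2 under an unadjusted 0.05, beside 15.8% of all kept genes. The brightest kept one, Ctsh, an aminopeptidase, had -0.05, 1.57 and 0.17. Ctsl, the nearest relative outside the cluster and a main lysosomal endopeptidase, was not tested because its spot was marked as an outlier on replicate 1, and it had 0.74 and -0.46 on replicates 2 and 3. Ctss, the cathepsin of antigen-presenting cells, had 1.77, 0.14 and 3.95. Its wild-type signal was not well above background on any array, so its mean gives only a bound, at least 3.69-fold against the lowest signal that was well above background. That mean rests on replicates 1 and 3, and without replicate 3 the mean log2 ratio was 0.96. Ctss and Ctsl were singled out after their values were seen. Ctsll3, a gene near Ctsj, was dim.

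The natural inhibitors of these proteases were next. Of 18 genes 16 were on the array and 9 were kept, with a median log2 ratio of 0.11 and 0 at least 2-fold apart on every array. In limma 0 of 9 passed an adjusted p under 0.05, and 1 had an unadjusted p under 0.05, beside 15.8% of all kept genes. The brightest, Cst3, the secreted inhibitor cystatin C, had -0.32, 0.38 and -0.26. Ctla2a and Ctla2b, which resemble the propeptide of a cathepsin and lie just beside Ctsj, had 2.42, -0.17 and 0.63, and 2.52, -0.11 and 0.66. Both were high on replicate 1 and near or below 0 on replicate 2, an order that Ctsj did not share. These were named after their values were seen.

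Tpbpb and Tpbpa, placental genes of the same cluster, also encode proteins akin to a cathepsin propeptide. Tpbpb had log2 ratios of 2.45, 1.98 and 0.09 (1.51 ± 1.25, SD, n = 3). As with Ctsq, the ratio was high on replicates 1 and 2 and close to 0 on replicate 3, and the wild-type signal was not well above background on replicate 2. The mean was 1.03 without replicate 1 and 2.21 without replicate 3. Its levels were 9.21, 6.37 and 7.61 in wild type and 11.66, 8.34 and 7.70 in mutant+CT. Tpbpa, the usual marker of spongiotrophoblast, was well above background in no channel.

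Within 1 Mb on either side of the outermost member probes lay 36 other genes or unnamed transcripts, the 5 above (Ctsll3, Ctla2a, Ctla2b, Tpbpa and Tpbpb) included, of which 25 were kept. Their median log2 ratio was 0.33. At least 2-fold higher on every array was 1, an unnamed probe with a GAA repeat of 30 bases, and lower was 1, Gas1, a membrane protein of hedgehog signalling (-1.02, -2.20 and -3.48). Gas1 was no longer so with median centring or with the mean of all its probes. Limma called 0 of the 25, and 5 had an unadjusted p under 0.05, beside 15.8% of all kept genes. The brightest, an unnamed transcript (NAP059687-1), had -0.27 ± 0.62 (SD, n = 3). A pseudogene of the cluster, Ctsm-ps, had 0.33, and another, Ctsm-ps2, was dim. Mean ratios above 0 also lay on the far side of the cluster. Zfp935, a zinc finger gene, had 1.92, -0.14 and 1.17, and the transcript CF747970 had 1.09, 0.60 and 0.93. The mean of CF747970, 0.87, was below those of Ctla2a (0.96) and Ctla2b (1.02). Zfp935 and CF747970 were named after their values were seen.

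**Figure D4:**
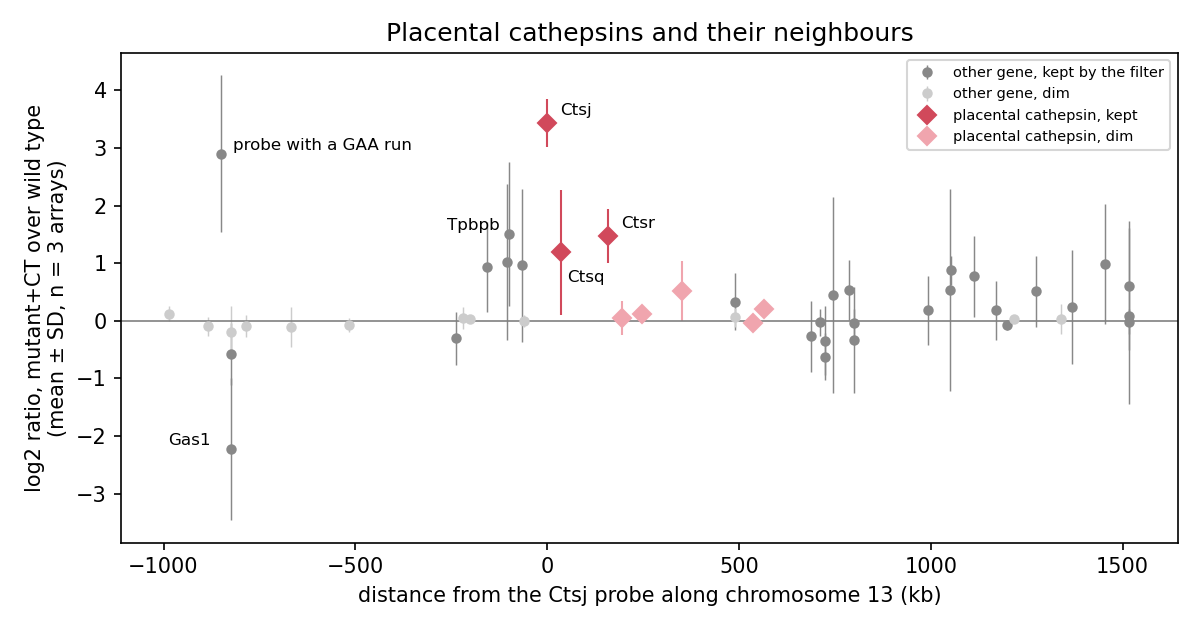
Mean ± SD over 3 arrays of the log2 ratio of mutant+CT over wild type (vertical axis) against the distance of each probe from the Ctsj probe along chromosome 13 in kb (horizontal axis). Diamonds are placental cathepsins, circles are other genes within 1 Mb, and pale symbols are dim probes. Ctsj stands at 3.43, and Ctsq, Ctsr and Tpbpb lie between 1 and 2 close to it. The dim probes of Cts6 and Cts8, 195 and 247 kb away, and of Ctsm and Cts3, 536 and 564 kb away, lie near 0. So does the dim neighbour Tpbpa, and a dim probe near 0 does not show equal RNA.

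Genes with the pattern most like Ctsj were found by the Euclidean distance between log2 ratios over the 3 arrays. The 5 nearest were Rest, a repressor of neuronal genes (distance 0.51), Atp7a, a copper transporter (0.62), Tmem245, a membrane protein (0.72), Gigyf1, a regulator of translation (0.91), and an unnamed probe on chromosome 8 (0.99). Rest had 2.84, 3.71 and 3.40, and Atp7a had 3.82, 3.97 and 2.92. A dimmer probe of Rest had a mean of only 0.29 and a dimmer probe of Gigyf1 0.03, so the likeness holds for 1 probe of each. The other kept members were farther away, Ctsr at 3.43 and Ctsq at 4.02.

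The promoters of the 8 genes were compared because the 3 kept members had a mean ratio above 2-fold. Of these, Ctsq was kept through mutant+CT only. All 8 matched the RefSeq promoter table (GRCm38.p6, minus strand), from which the 250 bases before the start of the gene were read. Below are the bases from 130 to 11 before the start, 5′ to 3′, for the 3 kept members, for the dim members Cts6, Cts7 and Ctsm, and for the neighbour Tpbpb, with CCAAT and TTTAAA in capitals. They are shown so that the letters around these runs can be compared between kept and dim members.
Ctsj: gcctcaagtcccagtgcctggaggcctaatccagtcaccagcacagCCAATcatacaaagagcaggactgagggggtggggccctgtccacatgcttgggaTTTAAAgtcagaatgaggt
Ctsq: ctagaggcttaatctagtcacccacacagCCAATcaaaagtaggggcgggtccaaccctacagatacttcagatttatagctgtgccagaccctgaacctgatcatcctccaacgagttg
Ctsr: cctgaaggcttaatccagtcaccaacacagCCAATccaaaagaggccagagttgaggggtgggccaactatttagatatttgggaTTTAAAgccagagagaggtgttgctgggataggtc
Cts6: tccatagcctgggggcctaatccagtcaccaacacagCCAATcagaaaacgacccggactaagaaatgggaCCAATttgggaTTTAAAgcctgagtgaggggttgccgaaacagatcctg
Cts7: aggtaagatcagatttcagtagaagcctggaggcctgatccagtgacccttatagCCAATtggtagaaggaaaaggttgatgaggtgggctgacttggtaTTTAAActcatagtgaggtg
Ctsm: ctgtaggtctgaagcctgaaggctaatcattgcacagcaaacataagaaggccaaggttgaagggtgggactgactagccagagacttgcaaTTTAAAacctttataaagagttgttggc
Tpbpb: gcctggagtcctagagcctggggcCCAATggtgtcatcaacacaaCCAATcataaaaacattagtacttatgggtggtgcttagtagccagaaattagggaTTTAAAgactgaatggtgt
The windows lie on chromosome 13 at 61005936 to 61006055 (Ctsj), 61040608 to 61040727 (Ctsq), 61164199 to 61164318 (Ctsr), 61203403 to 61203522 (Cts6), 61358207 to 61358326 (Cts7), 61541850 to 61541969 (Ctsm) and 60904858 to 60904977 (Tpbpb).

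CCAAT, the letters of the CCAAT box that factors such as NF-Y bind, stood on the strand of the gene in 5 of the 8 promoters (Ctsj, Ctsq, Ctsr, Cts6 and Cts7) and in 19.1% of all 32851 promoters of that length. On either strand it was in 7 of 8 and in 33.8% of all. It began 84 bases before the start in Ctsj, 101 in Ctsq, 100 in Ctsr and 75 in Cts7, and in Cts6 at 93 and again at 59. The longer run CAGCCAATC, which holds a CCAAT and was chosen after reading the sequences, was in Ctsj, Ctsq, Ctsr and Cts6 and, on either strand, in 1.9% of all promoters. The dim gene Cts6 thus had the same letters as the 3 kept members. TTTAAA, a run that reads the same on both strands, was in 7 of 8, all but Ctsq, and in 12.1% of all promoters. TATAAA, the letters of the TATA box, stood on the strand of the gene in 2 of 8 (Ctsm and Cts3) and in 7.59% of all. On either strand it was in 3 of 8, with Ctsq on the opposite strand only, and in 12.4% of all. GATA, the core bound by Gata2 and Gata3, was on either strand in 7 of 8 and in 53.6% of all. These matches describe letters and show no binding.

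In global alignments of these 250 bases, Ctsj was 66.9% identical to Ctsr, 66.5% to Cts6 and 62.2% to Ctsq, and between 57.0% and 60.3% identical to the remaining 4 members. The pair most alike was Ctsm and Cts3, both dim, at 90.6%. Against the 1519 other promoters of chromosome 13, Ctsj had a median identity of 49.3% and a 95th percentile of 52.6%. The highest of these, 60.8%, belonged to Tpbpb. Among the other neighbours, Tpbpa (59.1%) and Ctsll3 (58.1%) were dim, so their mean log2 ratios of -0.01 and 0.04 do not show equal RNA. Ctla2a (52.8% and 53.3% at its annotated starts) and Ctla2b (52.3%) had 0.96 and 1.02. A relation between identity and ratio was not tested.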

How the data were processed

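RNA of 3 wild-type and 3 mutant+CT embryoid body replicates was measured on 3 Agilent 2-colour arrays. Per the labels, 1 µg of total RNA was amplified for each. The deposited scanner files hold the intensity of each spot (mean signal and local background median, both dyes), Agilent's processed intensity and a log10 ratio of red over green, all from version 10.7.3.1 of Feature Extraction, the software of Agilent's scanner, per the file headers. The deposited value table holds log2 ratios of the authors, made with limma per the submitters' processing notes, with version and steps not given in the sources used here. Column medians are -0.02, 0.01 and -0.02. The columns read mutant+CT over wild type and correlate at 0.994, 0.996 and 0.998 with the ratios computed here.

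Ratios were computed in R 4.3.3 with limma 3.58.1: normexp background correction (offset 50), loess within arrays with control spots at weight 0, and outlier spots (454, 234 and 507) set to missing. Levels of single RNAs were taken after quantile scaling of the average intensities between arrays. Of 39429 probes 26725 were well above background on all 3 arrays in 1 group and were kept, 26318 of them measured on all arrays, and each of 20390 genes was represented by its brightest kept probe. Names follow RefSeq (GRCm38.p6) by accession for 30708 of 43020 spots and otherwise the files. Log2 ratios were tested against 0 with lmFit and eBayes, with Benjamini-Hochberg adjustment over all genes. The test was run on simulated ratios with spreads taken from these data, with 50 genes at each size of true ratio and 20190 genes with none. Limma called 0 of 50 genes with a true log2 ratio of 1 in size, 5 of 50 at 2, 22 of 50 at 3 and 29 of 50 at 4. A count of 0 called genes therefore does not show that no gene differed. The simulated counts hold for the simulated share of changed genes, and the true share in these data is not known. The number of arrays limits the precision.

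The members and lists were chosen with earlier results of these data known. Named are all members, the genes of each list at least 2-fold apart on every array, each list's brightest kept gene and the 5 genes most like Ctsj. Any other gene named was picked with its values in view. The alternatives tried were median centring, Agilent's processed signals, no background subtraction, scaling between arrays, a dye term, no filter, the filter in both groups, a trended and robust prior, the mean of all probes, an adjusted p under 0.1, the deposited table and leaving out each array. Counting all 8 member probes without a filter was added after the data were seen.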

Additional observations from a re-analysis of the deposited data

How the results depend on the processing

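Of 72 recomputed member ratios 70 stayed within 1 SD of the value given above. The other 2 came from Agilent's processed signals, with 0.29 for Ctsm and 0.72 for Cts3, and there the median of the 8 members was 0.81. Leaving out 1 array, the dye term and scaling between arrays could not move a mean of 3 arrays by 1 SD. For these settings the outcome was fixed in advance and says nothing about stability. Genes called by limma over all genes numbered 0 in the fit described, 290 on Agilent's processed signals, 176 with a trended and robust prior, 12 with the filter in both groups, 296 at an adjusted p under 0.1, and between 0 and 162 with 1 array left out, the highest without replicate 1. Members at least 2-fold higher on every array numbered 2 on processed signals (Ctsj and Ctsr) and 1 to 3 with 1 array left out, 3 without replicate 3. Of the other cathepsins, inhibitors and cluster neighbours, 2 differed by 2-fold or more on every array. This became 4 on processed signals, 1 with median centring, 1 with the mean of all probes and 2 to 7 with 1 array left out, 7 without replicate 2. Limma called 0 of them, but 1 on processed signals (Cst9) and 0 to 1 with 1 array left out (Gas1 without replicate 1). The cause of these changes was not tested. Each member has 1 probe, so the filter and the mean of probes give no other ratio. Signal over background limits 5 of the 8 members. The test of ratios against 0 is itself paired, since each array carries the wild-type and the mutant+CT RNA of 1 replicate.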
